A study of Mus musculus with 22 samples.

Results

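The glutathione and NRF2 antioxidant genes examined here were 10 genes chosen by symbol: Nfe2l2, Slc7a11, Gclc, Gclm, Gsr, Gpx2, Txnrd1, Srxn1, Nqo1 and Hmox1. They were chosen with earlier results of these data known. Counts of them called, set beside the share of all genes, are therefore description only. All 10 were found among the 46603 genes of the deposited tables, and all 10 passed the filter on low counts, which left 15763 genes for testing. RNA sequencing was done on intestinal tissue of male wild-type mice of the inbred strain C57BL/6, which were 7 weeks old at the start and ate a diet with 1 of 3 fibres for 7 weeks. Control and PFOS mice ate cellulose, a fibre that gut bacteria ferment poorly, Inulin and Inulin_PFOS mice ate inulin, a fermentable fructan, and Pectin and Pectin_PFOS mice ate pectin, a fermentable plant polysaccharide. PFOS (perfluorooctanesulfonic acid, a persistent fluorinated surfactant) was drunk with the water at a daily dose of 3 µg per kg of body weight by the groups with PFOS in their name. Control, PFOS, Pectin and Pectin_PFOS held 4 libraries each, Inulin and Inulin_PFOS 3 each, and all 6 groups shared the same strain, sex and fat, protein and carbohydrate content of the diet. Because the labels repeat the PFOS dose for all samples, exposure was taken from the group names. The labels number biological replicates without stating that each was a separate animal, so p-values measure the spread between these samples.

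NRF2, the transcription factor encoded by Nfe2l2, is held in the cytoplasm by KEAP1 and degraded; oxidants and electrophiles that modify KEAP1 let it reach the nucleus, where with small MAF proteins it binds antioxidant response elements. Glutathione, the main soluble thiol of the cell, is built from cysteine that enters partly as cystine through SLC7A11, in a pathway whose rate-limiting enzyme is made of the GCLC and GCLM subunits. Glutathione peroxidases spend it on peroxides, glutathione reductase (GSR) regenerates it with NADPH, and a parallel thioredoxin system uses thioredoxin reductase (TXNRD1). The intestinal epithelium is known for GPX2, a peroxidase found mainly in the gut.

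Library totals lay between 17613297 and 20261357 counts, and mitochondrial genes took 2.85% to 14.9% of a library. Pectin_PFOS replicate 1 stood apart from the rest, with the fewest detected genes (12927, from 10 counts on) and the smallest scaling factor (0.749). Control replicate 4 had the highest mitochondrial share (14.9%). It differed most from its group (chi-square per degree of freedom 255 to 295 against other Control libraries, which had 75.6 to 141 among themselves). Of the Control libraries it was lowest for Gsr, Gpx2, Gclc, Nqo1, Txnrd1 and Srxn1 and highest for Gclm and Nfe2l2. The labels do not name the gut segment. Ileal markers summed to between 6467 and 14969 CPM (a library-size-scaled count, here after TMM scaling, the trimmed mean of M values) and the ileal gene Fabp6 had 25803 to 89812 counts, while the colonic genes Car1 and Aqp8 had at most 4 and 2 counts in any library. Other genes of the 8-gene colon list were not near 0: Car4 had 609 to 9841 counts and Saa1 179 to 68536. PFOS replicate 4 also stood apart, with proximal small intestine markers at 732.5 CPM beside 57.0 to 254 CPM in all other libraries.

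Promoter windows from RefSeq (build GRCm38.p6, the 250 bases before the annotated start) were at hand for 7 of the 10 genes, and 4 are shown because they carry the motifs named next or, for Gpx2, because that gene had the largest fold changes. The core of the antioxidant response element was searched as TGACNNNGC and the AP-1 site as TGANTCA, on both strands. The first is in 10.2% and the second in 6.75% of all 32851 windows of the same length. Capitals mark the matches, and no match overlapped another motif. The windows are Gpx2 at chr12:76795555-76795804 (minus strand), Gclm at chr3:122245307-122245556, Txnrd1 at chr10:82858956-82859205 and Srxn1 at chr2:152105274-152105523 (plus strand), each 5′ to 3′ along the gene.
Gpx2: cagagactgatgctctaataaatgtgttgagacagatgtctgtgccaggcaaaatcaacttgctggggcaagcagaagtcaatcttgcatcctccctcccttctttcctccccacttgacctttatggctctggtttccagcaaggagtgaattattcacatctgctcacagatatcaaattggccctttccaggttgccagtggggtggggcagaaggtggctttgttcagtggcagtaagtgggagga
Gclm: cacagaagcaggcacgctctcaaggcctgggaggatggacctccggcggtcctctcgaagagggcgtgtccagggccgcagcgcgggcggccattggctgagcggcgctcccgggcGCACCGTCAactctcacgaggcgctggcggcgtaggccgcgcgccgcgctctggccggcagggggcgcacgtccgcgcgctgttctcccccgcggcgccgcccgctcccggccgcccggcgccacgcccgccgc
Txnrd1: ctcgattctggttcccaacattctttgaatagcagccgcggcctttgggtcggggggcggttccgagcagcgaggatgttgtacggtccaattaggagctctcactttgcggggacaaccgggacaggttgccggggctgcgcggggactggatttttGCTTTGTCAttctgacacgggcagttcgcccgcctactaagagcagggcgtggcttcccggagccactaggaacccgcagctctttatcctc
Srxn1: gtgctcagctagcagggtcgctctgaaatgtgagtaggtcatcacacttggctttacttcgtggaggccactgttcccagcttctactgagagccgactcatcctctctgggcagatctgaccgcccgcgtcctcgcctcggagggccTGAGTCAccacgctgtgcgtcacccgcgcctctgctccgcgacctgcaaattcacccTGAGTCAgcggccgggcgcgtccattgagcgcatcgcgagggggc
Counted back from the start, the response element core lay 134 to 126 bases upstream in Gclm and 92 to 84 in the Txnrd1 window shown, both on the strand opposite to the gene. Txnrd1 has 3 windows in the table, and the other two held neither motif. A further core lay 240 to 232 bases upstream of Nfe2l2. Srxn1 held 2 AP-1 sites, at 102 to 96 and at 45 to 39 bases upstream. Neither motif occurred in the windows of Gpx2, Nqo1 and Slc7a11. A match is a sequence description only, and no binding was measured.

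Per transcript length, the genes covered a wide range. Mean TPM (a deposited value scaled to transcript length and library size) over the 22 libraries was 516 for Gpx2, 209 for Srxn1, 83.2 for Txnrd1 and 81.1 for Gclm. It was 59.5 for Gsr, 57.0 for Nfe2l2, 12.5 for Gclc, 7.91 for Nqo1, 1.96 for Hmox1 and 0.217 for Slc7a11. The peroxidase Gpx2 was thus the most abundant transcript of the set, and Hmox1 (25 to 85 counts per library) and Slc7a11 (7 to 78 counts) were the scarcest. From the lowest to the highest library, the level in CPM spanned 13.7-fold for Gpx2, 4.70-fold for Gsr and 2.28-fold for Txnrd1.

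The 2 genes that use and recycle glutathione had higher mean levels in Inulin_PFOS, Pectin and Pectin_PFOS than in Control, PFOS and Inulin. For Gpx2, libraries of Pectin_PFOS and PFOS overlapped. Gsr and Gpx2 were 2.55 to 2.68 times and 2.84 to 4.26 times as abundant in Pectin as in Control and in Inulin_PFOS and Pectin_PFOS as in PFOS, while the genes that make glutathione had lower mean levels in the same groups. Over all 6 groups, edgeR's quasi-likelihood test for any difference called Gsr (adjusted p = 0.000482) and Gpx2 (adjusted p = 0.00332). It called none of the other 8. The same test called 29.5% of all genes tested, a larger share than in this set. Adjusted p-values are Benjamini-Hochberg values over all 15763 genes, and a gene was called changed under 0.05.

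Gsr (chromosome 8, 33652523 to 33698163, plus strand, GRCm38) encodes the NADPH-dependent reductase that returns oxidised glutathione to its reduced form. Its level was 91.1, 71.3, 92.0 and 52.8 CPM in Control replicates 1 to 4, and 76.2, 54.3, 60.8 and 83.4 CPM in PFOS. It was 85.3, 124 and 72.0 CPM in Inulin and 237, 131 and 178 CPM in Inulin_PFOS. Pectin libraries had 194, 186, 156 and 248 CPM and Pectin_PFOS libraries 165, 204, 188 and 179 CPM. Every library of Inulin_PFOS, Pectin and Pectin_PFOS lay above every library of the other 3 groups, with the narrowest gap between Inulin replicate 2 and Inulin_PFOS replicate 2. These groups were put together after the values were seen. The share of all genes that split the libraries this way was not computed. By mean level, Pectin (196 ± 38.3 CPM), Pectin_PFOS (184 ± 16.2) and Inulin_PFOS (182 ± 53.0; SD, n = 4, 4 and 3) overlapped each other, as did Inulin (93.8 ± 27.1), Control (76.8 ± 18.7) and PFOS (68.7 ± 13.5; n = 3, 4 and 4).

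Gpx2 (chromosome 12, 76792335 to 76795554, minus strand) encodes the epithelial glutathione peroxidase. Its level was 135, 133, 329 and 97.9 CPM in Control and 231, 71.6, 281 and 114 CPM in PFOS. Inulin libraries had 89.9, 274 and 147 CPM and Inulin_PFOS libraries 981, 533 and 716 CPM. Pectin libraries had 799, 554, 731 and 684 CPM and Pectin_PFOS libraries 252, 691, 419 and 619 CPM. Inulin_PFOS and Pectin did not overlap Control, PFOS or Inulin, whereas Pectin_PFOS replicate 1 lay below Control replicate 3, PFOS replicate 3 and Inulin replicate 2. Group means were 743 ± 225 CPM in Inulin_PFOS (SD, n = 3), 692 ± 103 in Pectin and 495 ± 199 in Pectin_PFOS (n = 4 each), and 170 to 174 CPM in the other 3 groups. The gene overlaps Fntb on the opposite strand, and whether the authors' counting used strand is not given in the sources used here, so reads of the pair cannot be told apart. The processed copy Gpx2-ps1 had at most 6.41 counts. Deposited Gpx2 counts were fractional in 16 libraries, so they rest in part on how the authors divided reads, which was not tested. TPM per count of Gpx2 varied 1.04-fold across libraries.

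**Figure D1:**
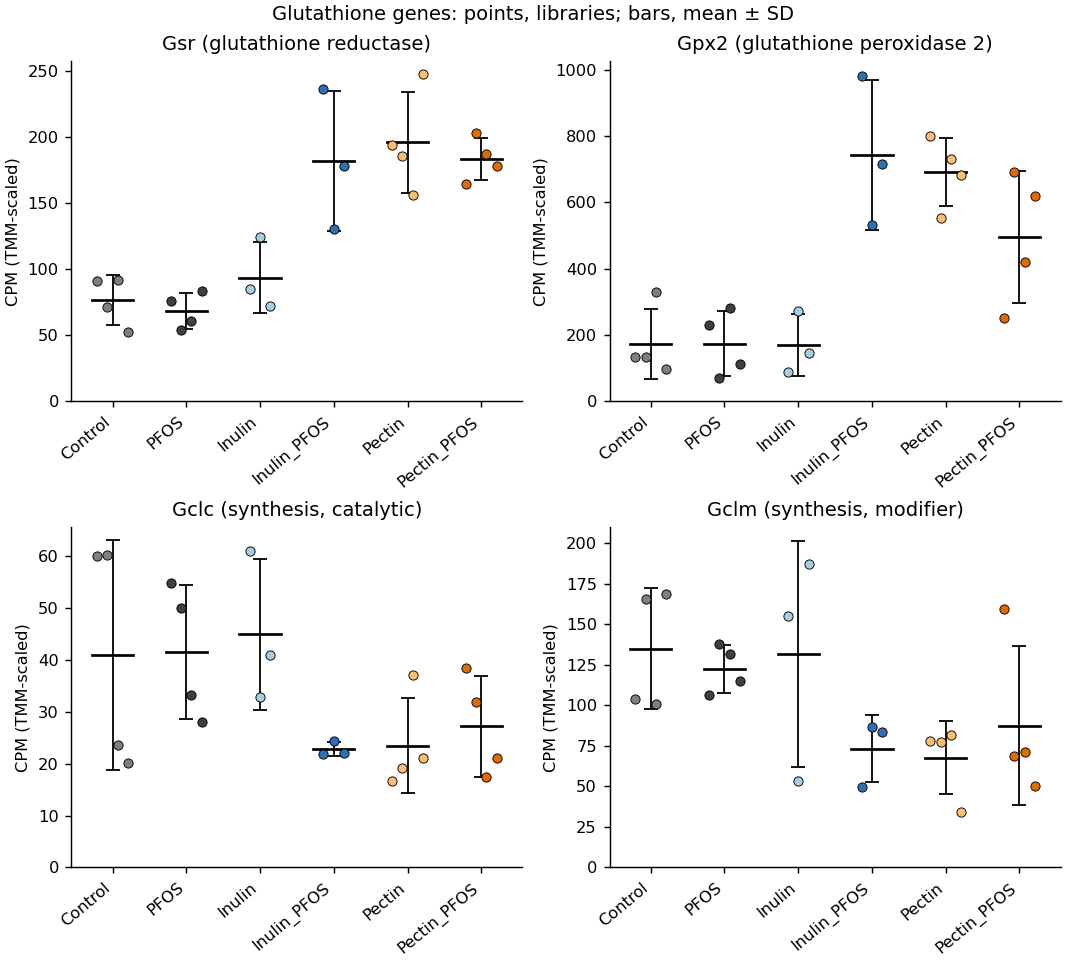
Levels of Gsr, Gpx2, Gclc and Gclm in CPM (TMM-scaled, linear axis from 0) in the 6 groups; each point is a library, the line the group mean and the bar 1 SD. Gsr lies between 131 and 248 CPM in all libraries of Inulin_PFOS, Pectin and Pectin_PFOS and between 52.8 and 124 CPM in all others. The share of all genes split this way was not computed.

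Pectin vs Control addressed the effect of pectin without PFOS. Gsr was 2.55-fold higher (log2 fold change 1.35 ± 0.23, SE, edgeR adjusted p = 0.00904) and Gpx2 3.98-fold higher (1.99 ± 0.45, adjusted p = 0.0319), and the groups did not overlap for either, as for 3.95% of all genes in that direction and 4.29% in the other. These were the 2 of 10 genes called, in a comparison that called 1.99% of all genes and 1.03% as higher. The other 8 had adjusted p-values of at least 0.156, and the median of the 10 was 0.12 beside −0.08 for all genes tested. Gsr kept its call when any single library was left out, and without Control 4 Gpx2 kept its call as well. The Gpx2 call was lost without Control 1, Control 2, Pectin 1, Pectin 2 or Pectin 3 (log2 fold change 1.88 to 2.09, adjusted p 0.0538 to 0.0762), on library totals alone (1.90, adjusted p = 0.0587) and in a model of only these groups (2.03, adjusted p = 0.0524). Limma on log2 TPM called neither gene (adjusted p 0.0610 to 0.119).

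Inulin_PFOS vs PFOS addressed inulin in exposed mice. Gsr was 2.65-fold higher (1.41 ± 0.24, edgeR adjusted p = 0.00482) and Gpx2 4.26-fold higher (2.09 ± 0.47, adjusted p = 0.0230), again without overlap, as for 12.4% of all genes in the higher direction. They were the 2 genes called, where 2.64% of all genes were called and 1.84% were higher, and the median of the 10 was 0.17 beside −0.01 for all genes. Without PFOS 2, Inulin_PFOS 1 or Inulin_PFOS 3, Gpx2 lost its call (log2 fold change 1.82 to 2.09, adjusted p 0.0728 to 0.122), while Gsr was called in all 22 omissions. Without PFOS 4 both were called (Gsr 1.503, adjusted p = 0.00670; Gpx2 1.93, adjusted p = 0.0456). In limma on log2 TPM the Gsr change was 0.84 to 0.85 with adjusted p 0.0565 to 0.0832. Hmox1 was 2.11-fold higher (1.08 ± 0.31), also without overlap, but did not pass (adjusted p = 0.0609).

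Pectin_PFOS vs PFOS addressed pectin in exposed mice. Gsr was 2.68-fold higher (1.42 ± 0.23, edgeR adjusted p = 0.0012) without overlap, and it stayed called in every omission of a library and every other setting tried. Gpx2 was 2.84-fold higher (1.51 ± 0.44, adjusted p = 0.0273) with overlapping groups. The comparison called 16.0% of all genes and 7.70% as higher and 8.33% as lower, so 2 of 10 is near the share of all genes; the median of the 10 was 0.39 beside −0.03. The Gpx2 call was lost without PFOS 2, PFOS 4, Pectin_PFOS 2 or Pectin_PFOS 4 (1.27 to 1.41, adjusted p 0.05002 to 0.0779), on library totals alone (1.14, adjusted p = 0.0799) and in limma on log2 TPM (1.20, adjusted p 0.0782 to 0.118). Without PFOS 4, Gsr was at 1.55 (adjusted p = 0.00186) and Gpx2 at 1.37 (adjusted p = 0.0658). Without Pectin_PFOS 1, a library that stood apart, edgeR called both genes (Gsr 1.47, adjusted p = 0.00283, and Gpx2 1.72, adjusted p = 0.0255). Inulin_PFOS vs PFOS and Pectin_PFOS vs PFOS share the PFOS libraries, so their changes are not independent.

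On cellulose, PFOS moved neither gene beyond its error: PFOS vs Control gave −0.16 ± 0.22 for Gsr and 0.00 ± 0.44 for Gpx2. edgeR called 0 of the 10 genes and 0% of all genes in either direction, DESeq2 called 0 of the 10 and 1 of all genes, and groups did not overlap for 1.14% of all genes as higher, with 1 of 10 and 842 of 15763 at an unadjusted p under 0.05. In Inulin vs Control edgeR called 0 of 10 and 0% of all genes, up to 794 genes when a library was left out, and DESeq2 called 0 of 10 and 783 of all genes (1 of 10 and 3257 of all at an unadjusted p under 0.05), and Gsr was at 0.29 ± 0.24 and Gpx2 at −0.03 ± 0.47. None of the 10 had groups that did not overlap there, as 3.70% of all genes did as higher and 6.12% as lower. In Inulin_PFOS vs Inulin, Gpx2 was 4.37-fold higher (2.13 ± 0.52, adjusted p = 0.0795) and Gsr 1.94-fold higher (0.96 ± 0.26, adjusted p = 0.0974), neither overlapping and neither past the threshold. edgeR called 0 of 10 there and 0.159% of all genes, 0.0698% as higher and 0.0888% as lower (3 of 10 and 2963 of all at an unadjusted p under 0.05), while groups did not overlap in the higher direction for 12.2% of genes; DESeq2's Wald test called both (adjusted p = 0.00441 and 0.0231). In Pectin_PFOS vs Pectin, Gsr (−0.09 ± 0.22) and Gpx2 (−0.48 ± 0.44) were not past the threshold (adjusted p = 0.786 and 0.436), in a comparison that called 20.8% of all genes (11.4% as higher, 9.43% as lower) and 0 of these 10 (2 of 10 and 5837 of all at an unadjusted p under 0.05; DESeq2 called 1 of 10 and 4051 of all).

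The difference between these PFOS effects was tested as an interaction. With inulin it was 1.12 ± 0.34 for Gsr (edgeR adjusted p = 0.113) and 2.12 ± 0.67 for Gpx2 (adjusted p = 0.121), so a different response to PFOS on inulin than on cellulose was not established; 0 of 10 and 0% of all genes were called, 3 of 10 and 3099 of all had an unadjusted p under 0.05, and DESeq2 called 659 genes with these 2 among them (adjusted p = 0.0473 and 0.0415). With pectin it was 0.07 ± 0.31 for Gsr and −0.49 ± 0.62 for Gpx2, with 0 of 10 and 0% of all genes called by edgeR, 0 of 10 and 119 of all by DESeq2, and 0 of 10 and 1953 of all at an unadjusted p under 0.05. Averaged over the 3 diets, the PFOS effect was 0.23 ± 0.13 for Gsr and 0.55 ± 0.27 for Gpx2, with 0 of 10 called by edgeR or DESeq2 (0 of 10 and 2349 of all at an unadjusted p under 0.05) and 0.159% of all genes called by edgeR, 0.108% as higher and 0.0508% as lower.

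**Figure D2:**
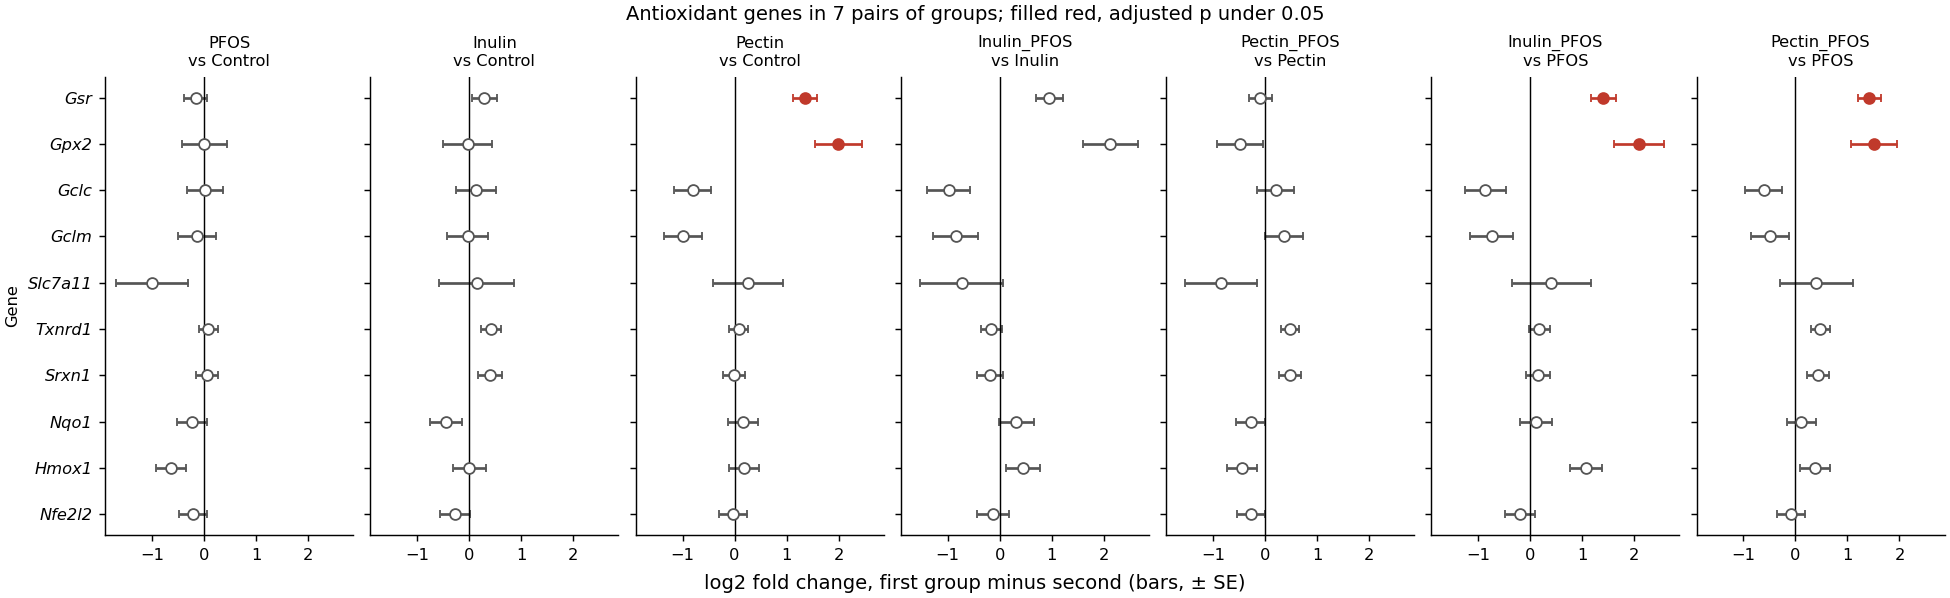
Log2 fold change (first group minus second, x axis) of the 10 genes (y axis) in the 7 pairs of groups, with bars of 1 SE; filled red points have an edgeR adjusted p under 0.05. Gsr and Gpx2 are the only filled points, between 1.35 and 2.09, in Pectin vs Control, Inulin_PFOS vs PFOS and Pectin_PFOS vs PFOS.

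The subunits that make glutathione had values in the opposite direction. Gclc (chromosome 9, 77754535 to 77794485, plus strand), the catalytic subunit of glutamate-cysteine ligase, had 60.1, 60.2, 23.5 and 20.1 CPM in Control, 54.7, 50.1, 33.2 and 28.0 in PFOS, and 61.1, 32.8 and 41.0 in Inulin. It had 21.9, 24.4 and 22.2 CPM in Inulin_PFOS, 16.8, 19.2, 37.1 and 21.0 in Pectin, and 38.5, 31.9, 17.4 and 21.1 in Pectin_PFOS. The 3 Inulin_PFOS libraries lay below all PFOS libraries, as for 14.1% of all genes, and below all Inulin libraries, as for 12.1%. Control split into a high and a low pair and overlapped both pectin groups.

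Gclm (chromosome 3, 122245557 to 122270732, plus strand), the modifier subunit, had 104, 166, 101 and 169 CPM in Control, 106, 138, 132 and 115 in PFOS, and 155, 53.5 and 187 in Inulin. It had 49.5, 86.4 and 83.9 CPM in Inulin_PFOS, 78.0, 77.5, 81.8 and 34.1 in Pectin, and 160, 68.8, 71.1 and 50.5 in Pectin_PFOS. All Pectin libraries lay below all Control libraries, as for 4.29% of all genes, and all Inulin_PFOS libraries below all PFOS libraries, as for 14.1%. Pectin_PFOS replicate 1 was far above its group. The gene overlaps Gm17494 on the opposite strand and the pseudogene Gm6061 (0 to 21.5 counts), its deposited counts were fractional in 21 libraries, and its TPM per count varied 2.15-fold across libraries, more than for 97.8% of the 7797 genes compared. Its levels therefore rest on how the authors divided reads, which was not tested.

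Neither subunit passed in any pair of groups. Against Control, Pectin had Gclc at −0.80 ± 0.36 (edgeR adjusted p = 0.232) and Gclm at −0.99 ± 0.37 (adjusted p = 0.156). In Inulin_PFOS vs PFOS they were at −0.86 ± 0.39 (adjusted p = 0.216) and −0.74 ± 0.41 (adjusted p = 0.311), and 14.1% of all genes had groups that did not overlap in that direction. In Inulin_PFOS vs Inulin they were at −0.98 ± 0.41 and −0.85 ± 0.43 (adjusted p = 0.216 and 0.289). In Pectin_PFOS vs PFOS they were at −0.61 ± 0.36 and −0.49 ± 0.37 (adjusted p = 0.244 and 0.379), and without Pectin_PFOS 1 Gclm was at −0.95 (adjusted p = 0.0977). Other settings called one or both in the PFOS comparisons: on library totals alone, Pectin_PFOS vs PFOS gave −1.03 and −0.94 (adjusted p = 0.0410 and 0.0361).

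Averaging pectin against cellulose over both PFOS states, a comparison added after the values were seen and built from the libraries already described, edgeR put Gclc at −0.71 ± 0.25 (adjusted p = 0.0497) and Gclm at −0.74 ± 0.26 (adjusted p = 0.0486), beside Gsr at 1.39 ± 0.16 (adjusted p = 4.01e-05) and Gpx2 at 1.75 ± 0.32 (adjusted p = 0.0012). That comparison called 21.8% of all genes, 12.1% as lower and 9.72% as higher. Gsr and Gpx2 were called in every omission of a library. The Gclc and Gclm calls were each lost in 16 of 22 omissions (adjusted p up to 0.142 and 0.0988). Scaling by median ratios also ended both calls, and the biological replicate number as a block ended that of Gclc (adjusted p up to 0.0554 for Gclc and 0.0515 for Gclm). In the omissions, Gclc kept its call only without Control 3, Control 4, PFOS 4, Inulin 1, Pectin 3 or Pectin_PFOS 1, and Gclm only without Control 3, Inulin 1, Inulin 2, Inulin 3, Inulin_PFOS 1 or Pectin_PFOS 1. The same average for inulin, which called 3.96% of all genes and 2.02% as higher, put Gsr at 0.85 ± 0.17 (adjusted p = 0.0126) and Gpx2 at 1.03 ± 0.33 (adjusted p = 0.0793), with Gclc at −0.36 ± 0.27 and Gclm at −0.39 ± 0.28. That Gsr call was lost on library totals alone and in limma on log2(TPM + 1) (lowest value over 5 other settings 0.52, adjusted p up to 0.112).

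Neither the regulator nor the cystine carrier passed edgeR's test in any pair of groups. Nfe2l2 (chromosome 2, 75675513 to 75704641, minus strand), which encodes NRF2, had group means from 94.4 CPM in Inulin_PFOS to 125 CPM in Control, with log2 fold changes between −0.27 and −0.03 in the 7 pairs of groups. Control replicate 4 (202 CPM) and PFOS replicate 4 (170 CPM) were the highest libraries, above 97.0 to 103 CPM in the other Control libraries. Limma on log2(TPM + 1) called Nfe2l2 lower in Inulin_PFOS vs PFOS (−0.66, adjusted p = 0.0499), where edgeR gave −0.19 ± 0.29 and, without PFOS 4, 0.10. NRF2 is controlled chiefly as a protein, which RNA levels do not measure. Slc7a11 (chromosome 3, 49892526 to 50443614, minus strand) had group means between 0.996 CPM in PFOS and 2.38 CPM in Pectin and ranged from 0.372 to 3.89 CPM within Control alone. Its largest difference, −0.99 ± 0.69 in PFOS vs Control, did not pass (edgeR adjusted p = 0.822). It overlaps several pseudogenes and an antisense gene, and its TPM per count varied 3.16-fold across libraries, so its TPM carries that uncertainty. Without PFOS 4, its highest PFOS library, the difference in PFOS vs Control was −1.86 (adjusted p = 0.594).

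Thioredoxin reductase and sulfiredoxin had their highest group means in Pectin_PFOS. Txnrd1 (chromosome 10, 82859206 to 82897724, plus strand) encodes the reductase of thioredoxin and Srxn1 (chromosome 2, 152105516 to 152111376, plus strand) the enzyme that repairs over-oxidised peroxiredoxins. Txnrd1 had 235, 239, 175 and 140 CPM in Control, 212, 224, 190 and 209 in PFOS, 319, 228 and 244 in Inulin and 233, 240 and 236 in Inulin_PFOS. It had 165, 207, 270 and 192 CPM in Pectin and 316, 281, 295 and 272 in Pectin_PFOS. All Pectin_PFOS libraries lay above all Pectin and all PFOS libraries, a pattern shared in the higher direction by 12.0% of all genes in each comparison.

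Txnrd1 was 1.40-fold higher in Pectin_PFOS vs Pectin (0.48 ± 0.18, edgeR adjusted p = 0.0589) and 1.39-fold higher in Pectin_PFOS vs PFOS (0.48 ± 0.18, adjusted p = 0.0705), and neither passed. DESeq2 called both (adjusted p = 0.0315 and 0.0396), as did edgeR without Control 4 (0.0342 and 0.0419), and edgeR without Pectin 3 called the first (0.63, adjusted p = 0.0223). On library totals alone the values were 0.28 and 0.09 (adjusted p = 0.315 and 0.755), and limma on log2 TPM put the second at 0.05 (adjusted p up to 0.991). Srxn1 was 1.40-fold (0.48 ± 0.21, adjusted p = 0.106) and 1.35-fold higher (0.43 ± 0.21, adjusted p = 0.170) in the same comparisons, with Pectin_PFOS replicate 1 the highest library at 748 CPM beside 584, 494 and 455 CPM in its group. Without that library Srxn1 was at 0.33 and 0.27 (adjusted p = 0.331 and 0.461), and in Pectin_PFOS vs PFOS limma on log2 TPM turned its sign (−0.03). Across the 22 libraries Txnrd1 and Srxn1 had a Pearson r of 0.84 in log2 CPM, and 0.72 after the group means were removed. Gclc and Txnrd1 had 0.84 within groups, Gsr and Gpx2 0.87 over all libraries and 0.53 within groups, and Gsr and Gclm −0.79 and −0.76. These correlations describe libraries that share their scaling, and they carry no test.

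**Figure D3:**
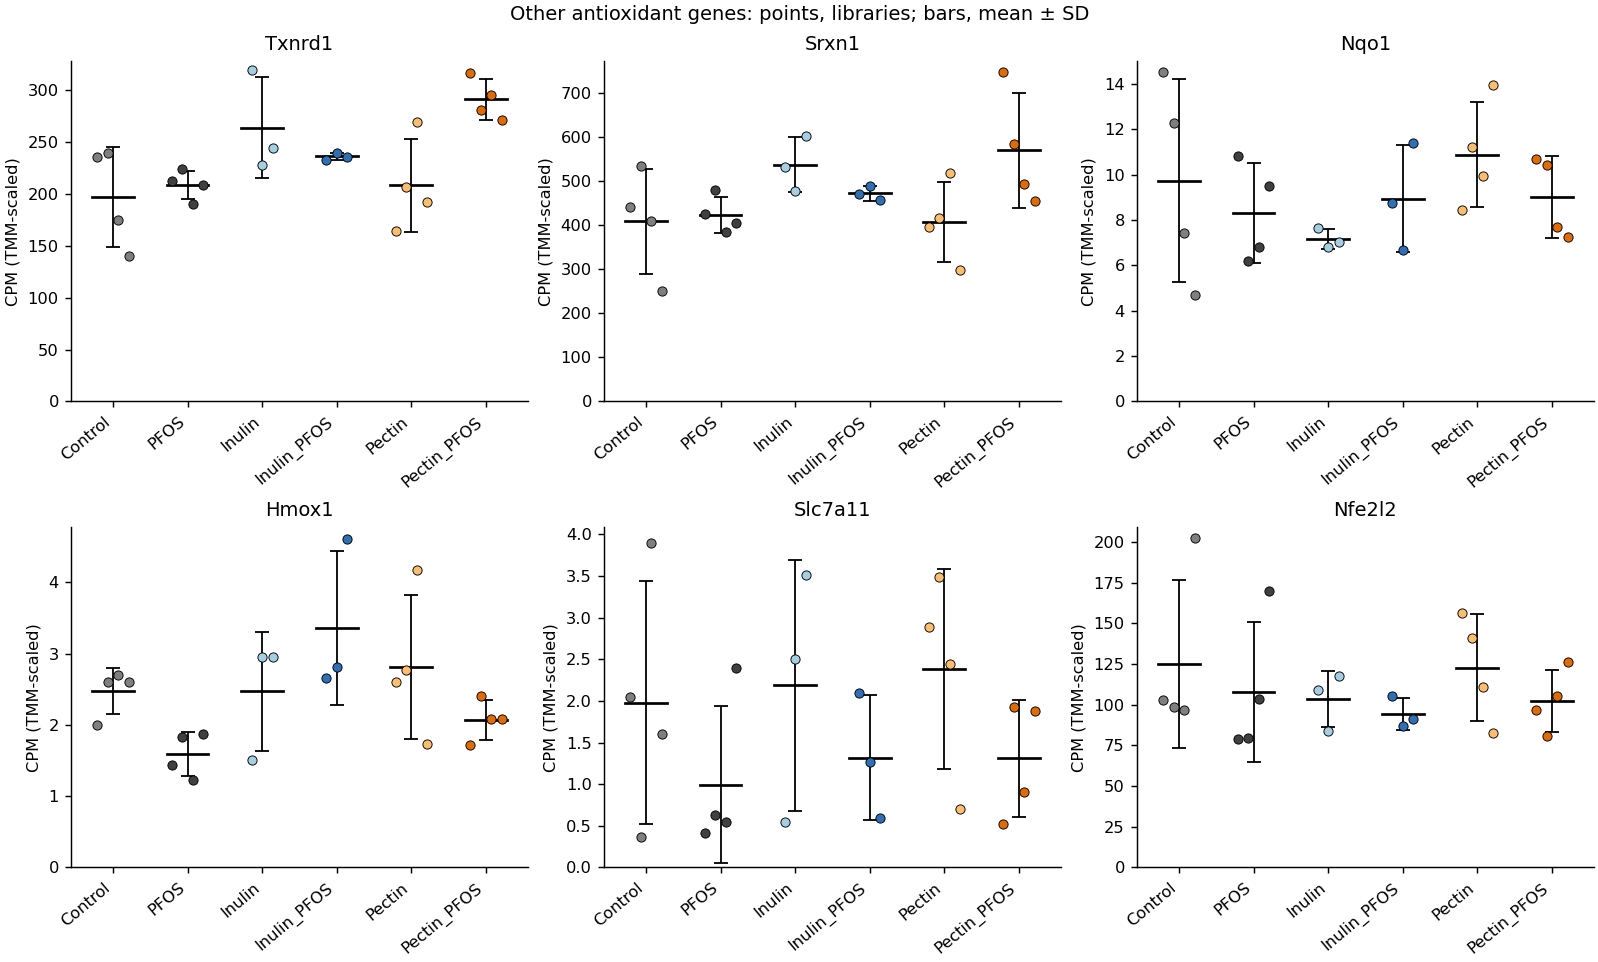
Levels of Txnrd1, Srxn1, Nqo1, Hmox1, Slc7a11 and Nfe2l2 in CPM (TMM-scaled, linear axis from 0) in the 6 groups; each point is a library, the line the group mean and the bar 1 SD. The 4 Pectin_PFOS libraries of Txnrd1 lie between 272 and 316 CPM, with Inulin replicate 1 above them at 319 CPM, and most groups of these genes overlap.

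Nqo1 and Hmox1, classical NRF2 targets, were low in this tissue. Nqo1 (chromosome 8, 107388225 to 107403206, minus strand), a quinone reductase, had group means between 7.15 CPM in Inulin and 10.9 CPM in Pectin, and ranged from 4.71 to 14.5 CPM within Control. Its 7 fold changes lay between −0.45 and 0.32, all with overlapping groups. Hmox1 (chromosome 8, 75093591 to 75100596, plus strand), the haem oxygenase that releases iron and biliverdin, had 2.00, 2.60, 2.70 and 2.60 CPM in Control and 1.43, 1.83, 1.23 and 1.87 CPM in PFOS. All PFOS libraries lay below all Control libraries (−0.64 ± 0.29, unadjusted p = 0.0398 and edgeR adjusted p = 0.822), as they did for 1.03% of all genes. The Inulin_PFOS libraries had 2.66, 2.82 and 4.61 CPM, all above PFOS. That difference, not passed in edgeR, was called by DESeq2 (adjusted p = 0.0207), in a model of only those 2 groups (adjusted p = 0.0420) and in edgeR without Pectin 4 (adjusted p = 0.0435).

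Other genes of the pathway were counted from lists grouped by function and chosen with earlier results of these data known. Their counts are description only. Of 14 further glutathione enzymes, Pectin vs Control called 1 higher and 1 lower (median 0.0018, beside −0.08 for all genes), Inulin_PFOS vs PFOS 1 higher (0.24 beside −0.01) and Pectin_PFOS vs PFOS 2 lower and 2 higher (0.09 beside −0.03). Of all genes tested, these comparisons called 1.03%, 1.84% and 7.70% higher and 0.958%, 0.799% and 8.33% lower. Gpx1, the cytosolic peroxidase, rose in these 3 comparisons by 1.05 ± 0.25, 1.18 ± 0.26 and 0.80 ± 0.24 (edgeR adjusted p = 0.0356, 0.0204 and 0.0309). Another glutathione peroxidase gene, Gpx3, was called lower in Pectin_PFOS vs PFOS (−0.87 ± 0.28, edgeR adjusted p = 0.0380). That Gpx3 call was lost without PFOS 2 or Pectin_PFOS 1, 3 or 4 (0.0693 to 0.221). Oplah, which returns 5-oxoproline to glutamate for glutathione synthesis, fell in Pectin vs Control (−1.04 ± 0.20, adjusted p = 0.0179) and Pectin_PFOS vs PFOS (−1.02 ± 0.20, adjusted p = 0.00349), from 32.0 ± 3.92 CPM in Control to 15.6 ± 3.50 in Pectin and from 34.2 ± 6.30 in PFOS to 16.9 ± 3.75 in Pectin_PFOS (SD, n = 4 each). The Oplah calls held in every omission of a library, the first being lost in a model of only these groups and in limma without a filter (adjusted p up to 0.0732). The Gpx1 calls did not: the first was lost without Control 1, 2 or 4 or any Pectin library (adjusted p 0.0512 to 0.0862), the second without PFOS 1, 2 or 3 or Inulin_PFOS 1 or 3 (0.0611 to 0.142), and the third without PFOS 1, 2 or 3 or Pectin_PFOS 2 or 3 (0.0549 to 0.0949). Library totals and limma on log2 TPM also ended all 3 Gpx1 calls (adjusted p up to 0.289 over the settings that ended them).

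Of 11 thioredoxin and peroxiredoxin genes, the same 3 comparisons called 2 higher each and 0 lower, with medians of 0.36, 0.47 and 0.24. In these comparisons 1.03%, 1.84% and 7.70% of all genes were called higher. The 2 genes called were Prdx6, a peroxiredoxin that takes its electrons from glutathione, and the thioredoxin gene Txn1. Prdx6 rose by 1.58 ± 0.27, 1.24 ± 0.28 and 1.36 ± 0.27 (edgeR adjusted p = 0.0110, 0.0242 and 0.00403), from 40.7 ± 8.77 CPM in Control to 122 ± 45.5 in Pectin, and from 41.8 ± 14.9 in PFOS to 98.5 ± 28.9 in Inulin_PFOS and 107 ± 15.1 in Pectin_PFOS (SD, n = 3 or 4). Txn1 rose by 0.68 ± 0.16, 0.67 ± 0.17 and 0.69 ± 0.16 (adjusted p = 0.0396, 0.0429 and 0.00981). The Prdx6 call in Inulin_PFOS vs PFOS was lost without PFOS 1, 2 or 3 or Inulin_PFOS 1 or 3 (0.0728 to 0.149), and its other calls held in every omission. Limma on log2 TPM ended the Prdx6 call in Pectin vs Control (adjusted p up to 0.107), and library totals and limma that in Inulin_PFOS vs PFOS (lowest value over the 12 other settings 0.74, adjusted p up to 0.165). Txn1 kept its call in every omission in Pectin_PFOS vs PFOS; it lost it in Pectin vs Control without Control 1, 2 or 3, Pectin 1, 2 or 3 or Pectin_PFOS 3 (0.0506 to 0.0989), and in Inulin_PFOS vs PFOS without PFOS 1, 2 or 3, Inulin 2, Inulin_PFOS 1 or 3, Pectin 2 or Pectin_PFOS 2, 3 or 4 (0.0504 to 0.199). Library totals and limma on log2 TPM ended all 3 Txn1 calls, and the lowest values over the 12 other settings were 0.43, 0.15 and 0.30 (adjusted p up to 0.186, 0.516 and 0.170).

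**Figure D4:**
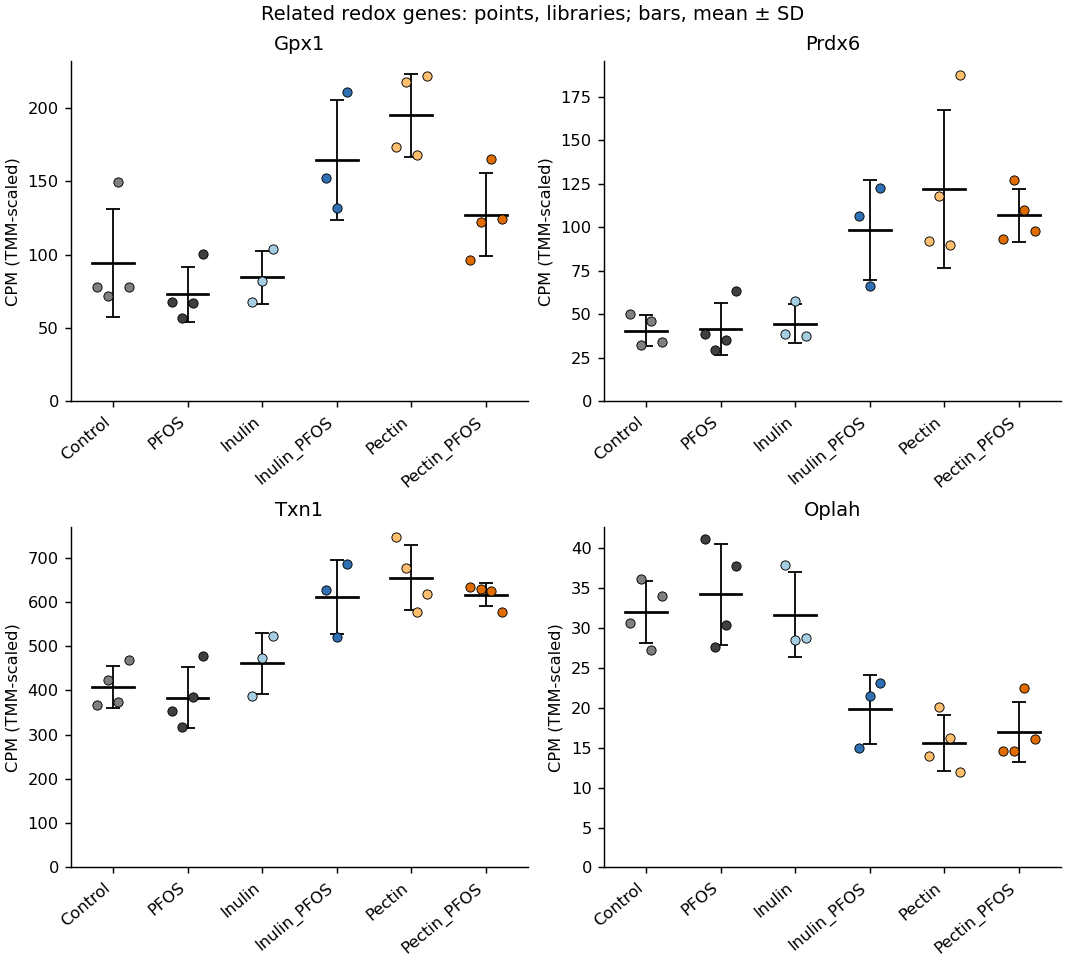
Levels of Gpx1, Prdx6, Txn1 and Oplah in CPM (TMM-scaled, linear axis from 0) in the 6 groups; each point is a library, the line the group mean and the bar 1 SD. Prdx6 lies between 66.4 and 187 CPM in Inulin_PFOS, Pectin and Pectin_PFOS and between 29.5 and 63.4 CPM in the other groups, and Oplah is lower in the first 3. How many of all genes split the groups this way was not computed.

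Pectin_PFOS vs PFOS called 7.70% of all genes higher and 8.33% lower. Of 8 NADPH-producing enzymes, it called 2 higher and 0 lower (median 0.28): G6pdx, the entry of the pentose phosphate pathway (0.86 ± 0.18, edgeR adjusted p = 0.00472), and Pgd, its next dehydrogenase (0.85 ± 0.21, adjusted p = 0.0109). Both calls held in every omission but were lost on library totals and in limma on log2 TPM (lowest values over the 12 other settings 0.39 and 0.41, adjusted p up to 0.251 and 0.394). Of 19 further NRF2 target genes, Pectin vs Control called 1 higher (median −0.13), where 1.03% of all genes were called higher. It was the aldo-keto reductase Akr1b8 (1.46 ± 0.34, edgeR adjusted p = 0.0330). The Akr1b8 call was lost without Control 2 or 3 or Pectin 2, 3 or 4 (adjusted p 0.0610 to 0.0746) and in 6 of 12 other settings (up to 0.168). In Pectin_PFOS vs Pectin, where 9.43% of all genes were called lower, Akr1b8 was lower (−1.30 ± 0.34, edgeR adjusted p = 0.013). That call held in every omission and was lost only in limma without a filter (adjusted p = 0.0889). Of the same 19 genes, Pectin_PFOS vs PFOS called 1 higher and 1 lower, the efflux pumps Abcc3 (1.80 ± 0.37, adjusted p = 0.00504, lost in limma on log2 TPM at adjusted p up to 0.186) and Abcc4 (−0.93 ± 0.28, adjusted p = 0.0273), the latter lost without PFOS 1, 2 or 3 or Pectin_PFOS 1 or 3 (0.0554 to 0.0851). Of 20 glutathione transferase genes, those of lowest p called there were Gstm1 (−0.94 ± 0.28), Gsto1 (0.64 ± 0.20) and Gstt1 (−0.69 ± 0.23). Their edgeR adjusted p-values were 0.0262, 0.0337 and 0.0465, and the calls were lost in 4, 7 and 9 omissions.

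In Pectin_PFOS vs Pectin, where none of the 10 genes passed, 3 of 11 NRF2 regulators were called higher and 0 lower (median 0.48 beside −0.06 for all genes), where 11.4% of all genes were called higher and 9.43% lower. They were Keap1, the cytoplasmic inhibitor of NRF2 (0.48 ± 0.16, edgeR adjusted p = 0.0407), the related factor gene Nfe2l1 (0.49 ± 0.16, adjusted p = 0.0362) and the kinase gene Gsk3b (0.66 ± 0.21, adjusted p = 0.0330). Each call was lost in some omissions. Keap1 lost it without PFOS 3, Inulin 1, any Inulin_PFOS library, Pectin 1, 2 or 3 or Pectin_PFOS 1, 2 or 3 (0.0507 to 0.152), Nfe2l1 without Inulin_PFOS 2, Pectin 1, 2 or 3 or Pectin_PFOS 1, 2 or 4 (0.0509 to 0.110), and Gsk3b without Pectin 1, 2 or 4 or Pectin_PFOS 1 (0.0693 to 0.121). Library totals and limma on log2 TPM were among the settings that ended all 3 (adjusted p up to 0.373, 0.376 and 0.143). The peroxiredoxin gene Prdx4 fell (−1.36 ± 0.31, adjusted p = 0.00790), as did the secreted superoxide dismutase gene Sod3 (−1.40 ± 0.35, adjusted p = 0.0110), and both held in every omission, Sod3 being lost in limma without a filter (adjusted p = 0.0639). From the same list as Sod3, the catalase gene Cat rose (0.71 ± 0.22, adjusted p = 0.0314), a call lost without Pectin 1, 2 or 4 or Pectin_PFOS 1 (0.0554 to 0.143). Of the further glutathione enzymes, Gpx8 (−1.59 ± 0.38, adjusted p = 0.00991) and Chac2 (−1.39 ± 0.34, adjusted p = 0.0109) fell. Both of these calls held in every omission and every other setting. Ggt1 of that list rose (0.98 ± 0.26, adjusted p = 0.0162), a call lost without Pectin 1 or Pectin_PFOS 1 (0.0508 and 0.0647).

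Slc7a11 is also a target of ATF4, the factor of the amino acid stress response, so 16 other ATF4 targets were counted. Pectin vs Control called 2 higher and 0 lower (median 0.57), Inulin_PFOS vs PFOS 6 and 0 (0.71), Pectin_PFOS vs PFOS 8 and 0 (0.80) and Inulin_PFOS vs Inulin 3 and 0 (0.71). Of all genes tested, these comparisons called 1.03%, 1.84%, 7.70% and 0.0698% higher, in that order. Asns, asparagine synthetase, rose by 1.41 ± 0.26, 1.88 ± 0.27, 2.17 ± 0.26 and 2.03 ± 0.30 (edgeR adjusted p = 0.0147, 0.00212, 0.00017 and 0.00523). The first 3 of these calls held in every omission, the first being lost in limma without a filter (adjusted p = 0.0715), and the fourth was lost without Inulin 1 or Inulin_PFOS 1 (0.0667 and 0.0851). Slc3a2, which encodes the partner chain of the SLC7A11 carrier, rose in Pectin_PFOS vs Pectin (1.38 ± 0.26, adjusted p = 0.00377), where Slc7a11 was at −0.85 ± 0.69. That comparison called 11.4% of all genes higher. The next genes of the list by p there, Trib3 and Slc7a5, were also higher (1.14 ± 0.33 and 1.08 ± 0.34, edgeR adjusted p = 0.0227 and 0.0327). Their calls were lost in 2 and 5 omissions.

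The genes whose log2 CPM over the 22 libraries was most like that of Gsr were Prdx6 (Pearson r = 0.96), Rars (0.96), an arginyl-tRNA synthetase gene, and Gmds (0.94), which makes GDP-fucose precursors. For Gpx2 they were Yars (0.92), a tyrosyl-tRNA synthetase gene, Saa3 (0.91), a serum amyloid gene, and Gmds (0.91). These are descriptions over libraries that share group differences.

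Marker genes of other cells differed between the same groups. In bulk tissue, fewer cells of a type and less RNA per cell cannot be told apart. Goblet cell markers (8 of 8 detected) summed to 6310 to 10088 CPM in the libraries of Control, PFOS and Inulin, to 10985 to 19153 in Inulin_PFOS, 7201 to 14909 in Pectin and 13673 to 16974 in Pectin_PFOS. EdgeR called 2, 3 and 4 of them higher in Pectin vs Control, Inulin_PFOS vs PFOS and Pectin_PFOS vs PFOS, where 1.03%, 1.84% and 7.70% of all genes were called higher. B and plasma cell markers (8) summed to 283 to 1358 CPM in the first 3 groups, 1355 to 2234 in Inulin_PFOS, 1957 to 4037 in Pectin and 523 to 1739 in Pectin_PFOS. The 8 colon markers summed to 238.5 to 2589 CPM in the first 3 groups and 874 to 4442 in the others. Among them Saa1, an acute-phase gene, had group means of 47.6 to 773 and 1461 to 3480 CPM.

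Enterocyte markers (12) summed to 14471 to 95448 CPM, overlapping between all groups, and stem and crypt markers (8) to 110 to 207 CPM. Macrophage markers (12) summed to 90.0 to 331 CPM in Control, PFOS and Inulin, 254 to 458 in Inulin_PFOS, 270 to 478 in Pectin and 61.8 to 291 in Pectin_PFOS. T cell markers (8) summed to 15.5 to 216 CPM in Control, PFOS and Inulin, 222 to 306 in Inulin_PFOS, 38.3 to 298 in Pectin and 167 to 301 in Pectin_PFOS. Proximal small intestine markers (8) had median sums of 80.7, 72.4 and 78.6 CPM in Control, PFOS and Inulin and 132, 167 and 122 CPM in Inulin_PFOS, Pectin and Pectin_PFOS. Paneth cell markers (7) summed to 5168 to 10519 CPM in Pectin and 946 to 7841 elsewhere. Neutrophil markers summed to at most 2.93 CPM in any library, with 1 or 2 of the 6 genes at 0 throughout each group other than Control. Fibroblast markers (8) summed to 138 to 284 CPM in Pectin_PFOS (238 to 1337 elsewhere) and 6 of 8 were called lower in Pectin_PFOS vs PFOS (8.33% of all genes), and proliferation markers (10) were highest in Pectin (198 to 250 CPM against 63.4 to 179 elsewhere). The part of any of these cell types in the Gsr and Gpx2 differences was not tested.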

How the data were processed

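Intestinal RNA from 22 samples in 6 groups was compared. The authors deposited an expected count, an estimate of reads that need not be whole, and a TPM value per gene; per the submitters' processing notes HISAT, Bowtie2 and GRCm39 were used, with no version or role, yet 38860 of 46005 genes shared with GENCODE M21 have identical GRCm38 coordinates, so that build is printed. Library preparation was stranded, per the labels' protocols; the counting program is not given in the sources used here. Counts were rounded and tested in edgeR 4.0.16 (R 4.3.3) by its quasi-likelihood test with robust fitting: TMM scaling, the default filter by group (minimum count 10), 15763 genes, a mean per group over 22 libraries, two-sided p-values adjusted by Benjamini-Hochberg over all genes tested within each comparison. Each SE was derived from the fold change and its F statistic, and log2 CPM used a prior count of 2. Alternatives used DESeq2 1.42.0 and limma 3.58.1 on log2(TPM + 1) or log2(TPM + 0.1), other scalings and filters, a model of only the groups compared, replicate blocks, and each library left out. The scripts were also tested on simulated data. Replicates all differed by more than sampling noise. The members and gene lists were chosen with earlier results of these data known. From each list, up to 3 passing genes by p could be named per comparison, and per member with a call the 3 genes of highest Pearson r.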

Additional observations from a re-analysis of the deposited data

Results flagged for a closer look

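In groups of 4 libraries, the gap of the most extreme library to its neighbour was compared with the group's range. Of 40 groups (10 genes in 4 groups) 5 had an extreme library, where chance gives about 5%. Gpx2 was high in Control replicate 3 (329 CPM), Gclm low in Pectin replicate 4 (34.1 CPM) and Hmox1 low in Control replicate 1 (2.00 CPM). Slc7a11 was high in PFOS replicate 4 (2.40 CPM) and Nfe2l2 high in Control replicate 4 (202 CPM).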

How the results depend on the processing

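Of 3370 values of the 10 genes under 12 other settings and 22 omissions of a library, 3322 were called in both fits or in neither, 28 lost their call, 20 gained one and 0 called values changed sign. A further count, 214 values, changed sign with neither fit past the threshold. Only Gsr and Gpx2 in 3 comparisons had a call to lose, so the 3322 do not measure stability. In Pectin vs Control, Inulin_PFOS vs PFOS and Pectin_PFOS vs PFOS, Gpx2 lost its call in 5, 3 and 4 of 22 omissions and 5, 1 and 4 of 12 other settings. Gsr lost it in 0 omissions and in 3, 3 and 0 other settings. The number of the 10 genes called in Pectin vs Control went from 2 to 1 on library totals alone and in a model of only the 2 groups, to 0 in the 3 limma fits on TPM, and was 1 to 2 over the omissions. In Inulin_PFOS vs PFOS it went from 2 to 4 in a model of only the 2 groups, which added Gclc as lower and Hmox1 as higher. It was also 4 in limma on log2(TPM + 1), which lost Gsr and added Gclc, Gclm and Nfe2l2 as lower. The number was 0 in limma without a filter and 1 to 3 over the omissions. In Pectin_PFOS vs PFOS it went from 2 to 1 in the 3 limma fits and to 3 in DESeq2, in a model of only the 2 groups (both adding Txnrd1) and on library totals (adding Gclc and Gclm and losing Gpx2), and was 1 to 3 over the omissions. DESeq2's Wald test gave 2 in place of 0 in Inulin_PFOS vs Inulin and in the inulin interaction, and 1 in place of 0 in Pectin_PFOS vs Pectin (0 to 1 over the omissions). For any difference among the 6 groups the count went from 2 to 4 on library totals and in DESeq2, and was 2 to 3 over the omissions. The cause of these changes was not tested. Library totals shifted the median of all genes to −0.41 in Pectin_PFOS vs PFOS and −0.33 in Inulin_PFOS vs PFOS, so changes are relative to TMM.

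Nothing in the labels says that replicate numbers pair the samples. Same-numbered libraries of different groups had a median correlation of deviations of −0.0014 over 51 pairs (−0.018 for other pairs). Single pairs ranged from −0.387 to 0.440, so the median cannot show that no samples were paired. With the biological replicate number as a block, as with the number in the title, the counts of the 10 genes called were the same as without it in all 11 comparisons (2 in Pectin vs Control, Inulin_PFOS vs PFOS and Pectin_PFOS vs PFOS). The number of all genes called ranged more widely: in Pectin vs Control from 51 to 530 over the omissions and 856 in DESeq2, against 313. Groups of 3 and 4 libraries limit the precision, and Hmox1 and Slc7a11 rest on few counts. A model of only the groups compared has no value for the averaged PFOS effect or the test of any difference.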
